A study of Mus musculus with 12 samples.

Results

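The genes of surfactant and of the alveolar epithelium were followed in the lungs of mice carrying a mammary tumor. The 10 genes were Sftpa1, Sftpb, Sftpc, Sftpd, Abca3, Lamp3 and Napsa of the alveolar type II cell and Ager, Aqp5 and Hopx of the type I cell, and all probe sets listed with 1 of these symbols in the platform's gene table were taken. This gave 14 probe sets of 9 genes (6 type II, 3 type I), out of 22626 probe sets and 12393 genes in the table. Lamp3, a membrane protein of lamellar bodies, shared its probe set with Ppid and is given no value.

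The alveoli are lined by flat type I cells, across which gas is exchanged, and by cuboidal type II cells, which make surfactant and can give rise to type I cells. Surfactant is a film of phospholipid and protein that lowers surface tension; it is stored in lamellar bodies and cleared by type II cells and alveolar macrophages. Its hydrophobic proteins B and C act in the film, while proteins A and D are collectins that bind microbes.

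Female NCR nude mice, which are without a functional thymus and so have few mature T cells but keep granulocytes, B cells and natural killer cells, carried a 4T1 tumor, grown orthotopically from a murine mammary carcinoma line. The control mice, of the same strain and sex, received an orthotopic injection of phosphate-buffered saline (PBS). Lung and liver were taken on day 7 from both, giving 4 groups (tumor lung, control lung, tumor liver, control liver) of 3 Affymetrix arrays each, 12 in all. The submitters call the organs of the tumor-bearing mice pre-metastatic, and no age is given in the labels.

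All values are log2 GCRMA values, and each change is the tumor mean minus the control mean. Values are compared within a probe set, never between probe sets, because probes differ in how they hybridise. The number of arrays limits the precision, and p-values measure only the spread among these samples. In whole lung, fewer cells of a type and less RNA per cell cannot be told apart.

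Some lung arrays stood apart in transcripts of other organs. Alb, the albumin gene of hepatocytes, read 14.39, 10.38 and 8.96 on the tumor lung arrays and 11.08, 9.31 and 14.65 on the control lung arrays, so tumor replicate 1 and control replicate 3 were high. Myh6, a cardiac myosin gene, read 7.04, 10.63 and 10.48 in tumor lungs and 3.75, 10.76 and 12.10 in control lungs. Scgb1a1, the secretoglobin of airway club cells, read 16.15 to 16.19 in tumor lungs and 16.06 to 16.18 in control lungs. The highest value of each lung array was 16.23 to 16.33, and whether Scgb1a1 could still show a difference so near it was not tested. S100a8, a neutrophil calprotectin gene, read 15.36 to 15.49 in tumor lungs and 11.57 to 13.51 in control lungs, with no overlap. Groups did not overlap for 18.2% of all probe sets tested in lung, by the filter given below.

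The bases before the transcription start of 2 type II genes and 1 type I gene are shown because matches to the consensus of NKX2-1, the lung and thyroid homeodomain factor, occurred in these windows of Sftpa1 and Sftpb and not in that of Aqp5. They are from RefSeq on GRCm38.p6, 250 bases each, upstream of the gene on the + strand: chr14:41131538-41131787 for Sftpa1, chr6:72304360-72304609 for Sftpb and chr15:99590778-99591027 for Aqp5. Capitals mark motif matches.
Sftpa1: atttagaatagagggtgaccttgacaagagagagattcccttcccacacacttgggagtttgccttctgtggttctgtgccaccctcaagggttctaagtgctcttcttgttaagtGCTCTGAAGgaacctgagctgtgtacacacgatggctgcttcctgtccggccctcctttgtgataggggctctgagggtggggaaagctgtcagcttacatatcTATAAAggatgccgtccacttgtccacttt
Sftpb: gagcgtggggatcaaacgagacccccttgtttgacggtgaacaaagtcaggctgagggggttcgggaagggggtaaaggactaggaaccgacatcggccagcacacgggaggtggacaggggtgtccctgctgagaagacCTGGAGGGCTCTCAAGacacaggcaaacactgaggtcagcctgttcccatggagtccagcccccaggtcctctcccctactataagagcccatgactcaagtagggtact
Aqp5: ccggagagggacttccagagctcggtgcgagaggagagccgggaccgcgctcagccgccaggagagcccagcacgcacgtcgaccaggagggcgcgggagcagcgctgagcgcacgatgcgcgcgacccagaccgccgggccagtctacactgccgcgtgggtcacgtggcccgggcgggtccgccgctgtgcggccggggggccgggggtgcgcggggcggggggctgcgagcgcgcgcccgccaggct

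The promoter table held 8 windows of 7 of the genes, each running from 250 bases before to 50 after a start. GCNCTNNAG, the NKX2-1 consensus, was searched on both strands and occurred in 3 of the 8 windows, against 17.5% of 32851 promoter windows of the same length. In Sftpa1 it read GCTCTGAAG at -134 to -126 from the start, and a TATA box (TATAAA, in 13.6% of the promoter windows) lay at -30 to -25. In Sftpb it read GCTCTCAAG at -103 to -95, and a match on the other strand at -110 to -102 overlapped it. The third window was 1 of the 2 of Hopx, and the windows of Abca3, Ager, Aqp5 and Lamp3 had none. A match is a run of letters and does not show a bound factor.

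In control mice the genes read higher in lung than in liver. A probe set was tested when it read above 4 on at least 3 of the arrays fitted, and called at an adjusted p under 0.05. Of the 13 probe sets over that filter, 9 passed it only through the lung arrays and so had to differ, and their levels are given as a description. The other 4, of Abca3 and Hopx, were over the filter in both organs and were all called higher in control lung, where 44.6% of all probe sets tested were called higher. Sftpa1, Sftpb, Napsa, Ager and Aqp5 lay between 12.09 and 15.46 on all lung arrays, and between 2.07 and 3.79 on all liver arrays. Against a liver value of 4, taken as the bound, they were at least 2460-fold (Sftpa1), 1260-fold (Sftpb), 780-fold (Napsa), 1920-fold (Ager) and 308-fold (Aqp5) higher in control lung. Lung and liver came from the same mice, and samples of both organs are numbered alike, but the labels do not say that a number marks a mouse, so the arrays were treated as separate.

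Hopx and the 2 brighter Abca3 probe sets also read above the filter in liver, and the faintest Abca3 probe set did not. Which of the Abca3 probe sets follows the gene in liver was not tested. Abca3, the lamellar body lipid transporter, read 12.70, 12.78 and 12.69 in control lungs and 12.33, 12.28 and 12.02 in control livers on its brightest probe set, 1.43-fold higher in lung (adjusted p = 0.00451). A further Abca3 probe set differed by 1.33-fold (adjusted p = 0.0274). The faintest read 5.38 to 6.07 in control lungs and at most 3.81 on any liver array, at least 3.30-fold higher in control lung. Hopx, a homeodomain protein without DNA binding of its own, was 38.4-fold and 18.7-fold higher in control lung on its 2 probe sets and still read 9.13 to 10.20 on the liver arrays.

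**Figure D1:**
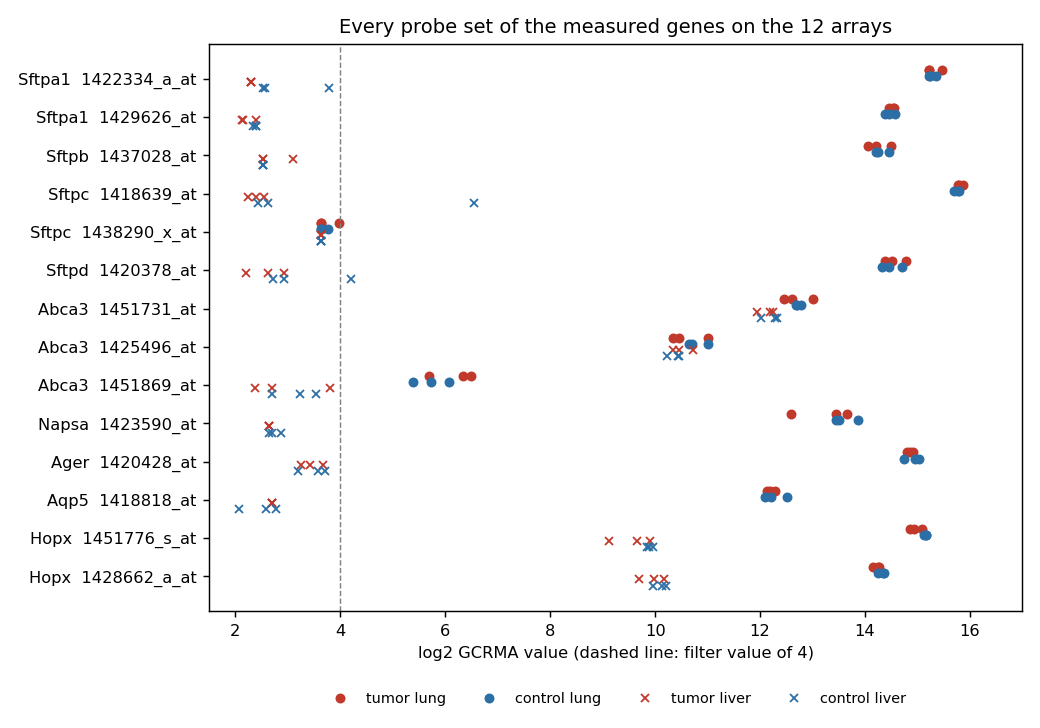
Log2 GCRMA value (horizontal axis) of each of the 14 probe sets on each of the 12 arrays, lung as circles and liver as crosses, tumor in red and control in blue. The dashed line is the filter value of 4; outside Hopx and the 2 brighter Abca3 probe sets, liver values reach 4.21 at most, apart from Sftpc at 6.54 on 1 control liver array.

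None of the 9 genes differed between tumor and control lungs by the test. Of 13 probe sets tested, 0 were called at an adjusted p under 0.05, and 0 had an unadjusted p under 0.05 (lowest 0.0811), against 0.406% of all 13315 probe sets called in lung (44 higher, 10 lower, limma; 1696 had an unadjusted p under 0.05). Adjusted p of the 13 ran from 0.457 to 0.953. By gene, 3 means (Sftpa1, Sftpc, Sftpd) were higher and 6 lower in tumor lungs, Sftpa1 turning to -0.034 with added quantile normalization, with a median change of -0.05, beside -0.02 over all probe sets tested, of which 54.6% had lower means. A p that misses the threshold does not show that the groups are alike, but for 10 of the 13 probe sets, all but that of Napsa and 2 of Abca3, the 95% interval of the change lay within 0.5 log2 units of 0, which held for 44.6% of all probe sets tested. Some of these read high on the scale, with Sftpc at 15.70 to 15.86, Sftpa1 at 15.21 to 15.46, Hopx at 14.86 to 15.17 and Ager at 14.74 to 15.03. The highest value of each lung array was 16.23 to 16.33. Whether a narrow interval there reflects a limit of the scale was not tested. The median SD within groups was 0.166 for the 13 probe sets and 0.188 over all tested. Without both Alb-rich arrays, which leaves 2 arrays a group, all 9 changes were negative, from -0.67 for Napsa to -0.0042 for Sftpc, with adjusted p from 0.655 to 0.996.

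The collectin genes overlapped between tumor and control lungs. Sftpa1, which codes for surfactant protein A, read 15.46, 15.22 and 15.21 in tumor lungs and 15.23, 15.36 and 15.21 in control lungs. The arrays overlapped, and the change was 0.03 ± 0.11 (SE, 95% interval -0.23 to 0.29, adjusted p = 0.93). Its other probe set changed by 0.04 (interval -0.18 to 0.27). Sftpd, which codes for surfactant protein D, read 14.79, 14.38 and 14.52 in tumor lungs and 14.46, 14.70 and 14.33 in control lungs. Its arrays overlapped too, with a change of 0.07 ± 0.15 (interval -0.31 to 0.44, adjusted p = 0.895).

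The genes of the hydrophobic proteins did not pass either. Sftpc, whose product is made only by type II cells in the adult lung, read 15.86, 15.77 and 15.80 in tumor lungs and 15.78, 15.79 and 15.70 in control lungs. The group means of 15.81 ± 0.05 in tumor lungs and 15.76 ± 0.05 in control lungs (SD, n = 3 each) gave an interval of -0.14 to 0.25 around a change of 0.05. These values lie near the top of the scale, where the highest value of each lung array was 16.23 to 16.33, and whether the arrays could still resolve a change there was not tested. Its other probe set read 3.63 to 3.98 on the lung arrays, under the filter, and was not tested. Sftpb, required for lamellar bodies and for breathing, read 14.49, 14.21 and 14.05 in tumor lungs and 14.24, 14.46 and 14.21 in control lungs. The highest Sftpb array and the lowest were both tumor lungs, and the change was -0.05 ± 0.15 (interval -0.41 to 0.31, adjusted p = 0.916).

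Napsa had the widest interval among the genes. Napsin A, its product, is an aspartic protease that helps to process surfactant protein B. It read 13.65, 13.45 and 12.59 in tumor lungs and 13.50, 13.86 and 13.45 in control lungs. The low value of tumor replicate 3 set the mean apart: the change was -0.38 ± 0.30 (interval -1.12 to 0.36, 0.768-fold, adjusted p = 0.646), and -0.06 without that array. The means were 13.23 ± 0.56 in tumor lungs and 13.61 ± 0.22 in control lungs (SD, n = 3 each).

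The 3 probe sets of Abca3 differed in direction. The brightest read 13.01, 12.45 and 12.61 in tumor lungs and 12.70, 12.78 and 12.69 in control lungs, a change of -0.03 ± 0.16 (interval -0.42 to 0.36, adjusted p = 0.953). The next changed by -0.18 ± 0.21 (interval -0.70 to 0.33). The faintest, which was the most lung-enriched of the 3, read 6.50, 5.69 and 6.33 in tumor lungs and 6.07, 5.73 and 5.38 in control lungs, a change of 0.45 ± 0.27 (interval -0.23 to 1.12, adjusted p = 0.557). Groups overlapped on each of the 3.

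The type I genes had lower means in tumor lungs throughout and none passed. Ager, which codes for the receptor for advanced glycation end products, read 14.91, 14.85 and 14.80 in tumor lungs and 14.74, 15.03 and 14.95 in control lungs, a change of -0.06 ± 0.10 (interval -0.31 to 0.20, adjusted p = 0.864). Aqp5, the apical water channel, read 12.29, 12.13 and 12.19 in tumor lungs and 12.20, 12.51 and 12.09 in control lungs, a change of -0.06 ± 0.13 (interval -0.39 to 0.27, adjusted p = 0.88). Both overlapped between groups.

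Hopx came nearest to a difference. Its brighter probe set read 14.93, 14.86 and 15.09 in tumor lungs and 15.13, 15.16 and 15.17 in control lungs, so every tumor array was below every control array. It was the only 1 of the 13 probe sets without overlap, against 18.2% of all probe sets tested in lung. The change was -0.20 ± 0.09 (interval -0.43 to 0.03, unadjusted p = 0.0811, adjusted p = 0.457). Its other probe set read 14.15 to 14.27 in tumor lungs and 14.25 to 14.37 in control lungs, a change of -0.10 ± 0.08 with overlap.

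**Figure D2:**
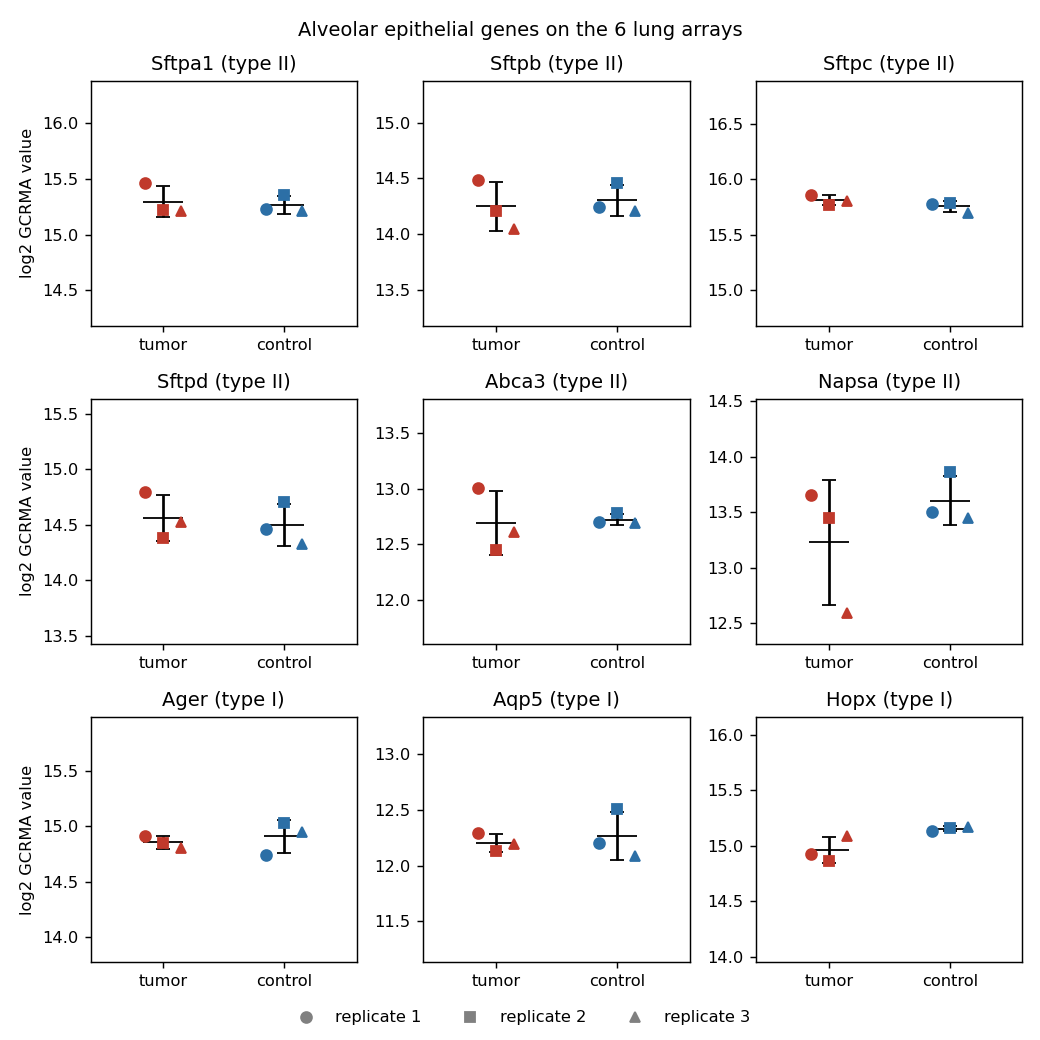
Log2 GCRMA value of each of the 9 genes on the 3 tumor and 3 control lung arrays, on its brightest probe set; lines and bars are the mean and SD, marker shape is the replicate number, and all axes span the same number of units. Groups overlap for all genes but Hopx, and tumor replicate 3 is low for Napsa at 12.59.

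**Figure D3:**
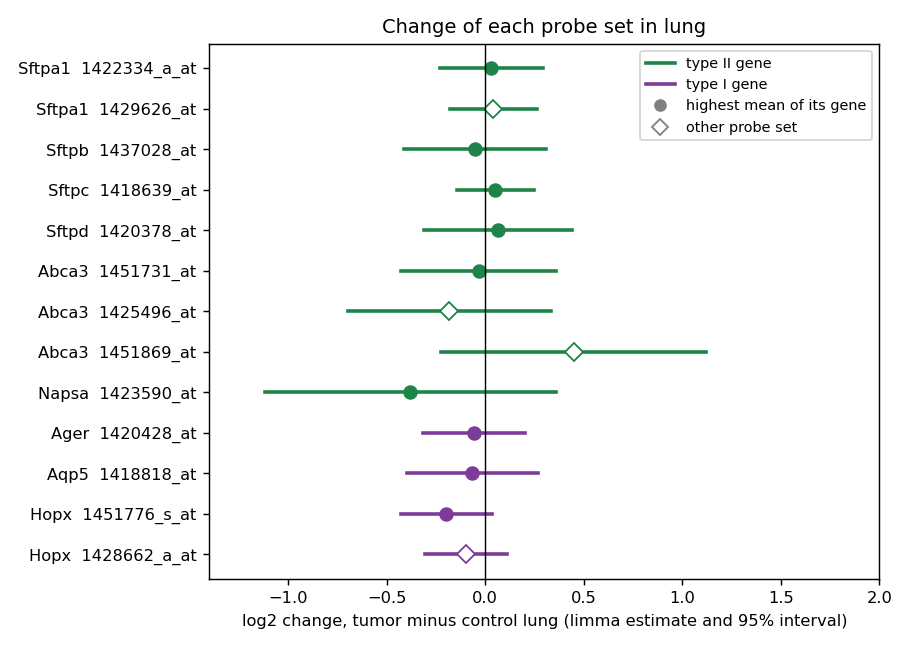
Change of each of the 13 tested probe sets, tumor minus control lung, in log2 units with its 95% interval from limma; filled circles are the brightest probe set of a gene and open diamonds the others. Every interval includes 0, and 11 of the 13 lie within 1 unit of it.

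The type II and type I genes were compared by centring each gene on its mean over the 6 lung arrays and averaging. The type II average was 0.21, -0.09 and -0.20 in tumor lungs and -0.02, 0.16 and -0.07 in control lungs. The type I average was -0.02, -0.11 and -0.03 in tumor lungs and -0.03, 0.18 and 0.01 in control lungs. The type II minus type I difference was 0.23, 0.03 and -0.17 in tumor lungs and 0.02, -0.02 and -0.08 in control lungs, so the tumor lungs spread on both sides of the controls. The group means of the difference were 0.03 ± 0.20 in tumor lungs and -0.03 ± 0.05 in control lungs (SD, n = 3 each), 0.05 apart. With the faintest Abca3 probe set it was 0.13, and without Abca3 it was 0.05. The median change was -0.0011 for the type II genes (3 higher, 3 lower) and -0.06 for the type I genes (0 higher, 3 lower).

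The arrays highest in type II genes, tumor replicate 1 and control replicate 2, were also those highest in alveolar macrophage genes. The centred average of 10 alveolar macrophage genes was 0.45, -0.41 and -0.63 in tumor lungs and -0.10, 0.53 and 0.16 in control lungs, and that of 24 other type II genes was 0.28, -0.09 and -0.16 in tumor lungs and -0.15, 0.13 and 0.00 in control lungs. The 14 hepatocyte genes averaged 3.35, -2.11 and -2.14 in tumor lungs and -0.83, -2.69 and 4.41 in control lungs, high on only 1 of those 2 arrays. In the macrophage list Fabp1 was highest on the Alb-rich arrays, tumor replicate 1 (12.88) and control replicate 3 (12.94). In the other type II list Hc read 12.46 on tumor replicate 1 and 10.55 to 11.08 on the other lung arrays. These averages may therefore hold transcripts of more than 1 cell type. The 13 cardiac genes averaged -2.11, 1.02 and 0.72 in tumor lungs and -3.30, 1.34 and 2.32 in control lungs. The part of these cells in the type II values was not tested.

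**Figure D4:**
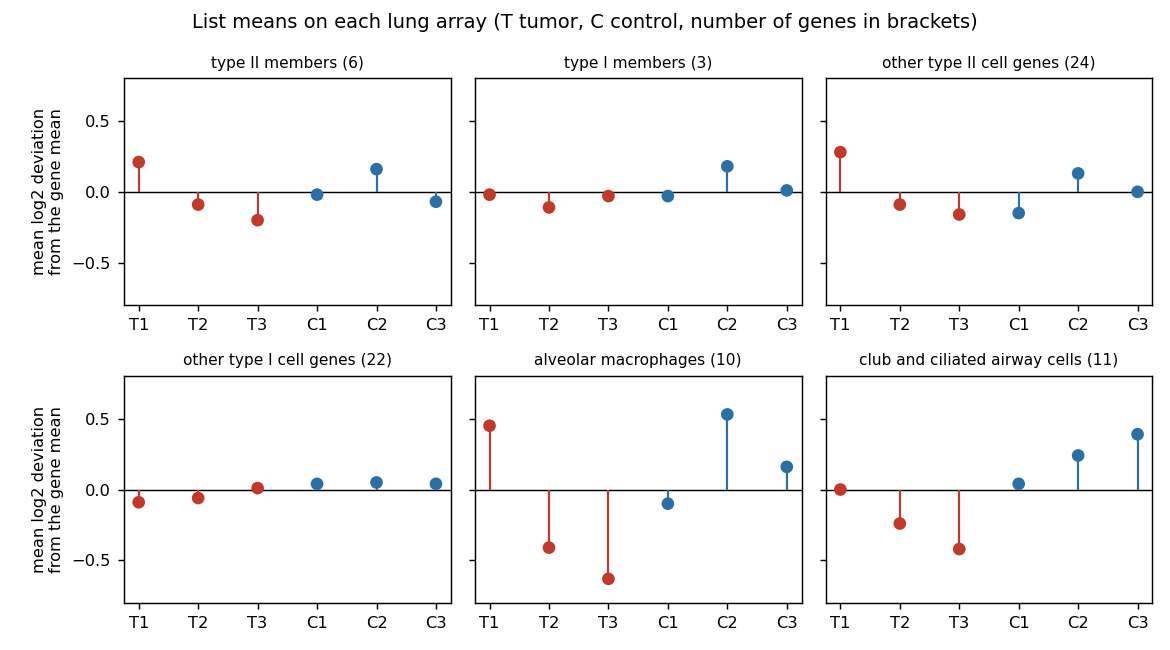
Mean centred log2 value of each gene list on each lung array, T for tumor and C for control, with the number of genes in brackets. The type II list is highest on T1 and C2 at 0.21 and 0.16, and the type I list stays between -0.11 and 0.18.

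Genes whose values were most like the type II average over the 6 lung arrays were Sdc1 (Pearson r = 0.991), Serpinb9 (0.979), Ing3 (0.978), Tmem243 (0.977) and Efcab7 (0.976). For the type I average they were Lpar1 (0.998), Pef1 (0.995), Tmem163 (0.982), Puf60 (0.980) and Cxxc1 (0.978). These are the highest of many candidates on 6 arrays, with 97 of 8191 candidates over 0.9 for type II and 134 of 10831 for type I, and are a description only.

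Other genes of both cell types were also counted in lung, where 0.406% of all probe sets tested were called and 54.6% had lower means. Of 22 other type II genes tested, 0 passed, 15 had higher means and 7 lower, with a median change of 0.06. Retnla, a secreted resistin-like protein, read 9.40 ± 1.05 in tumor lungs and 8.27 ± 0.31 in control lungs (adjusted p = 0.453), and Cd74, the MHC class II invariant chain, 14.42 ± 0.16 in tumor lungs and 13.97 ± 0.19 in control lungs (adjusted p = 0.278). Il33, an alarmin cytokine, read 11.04, 10.86 and 10.67 in tumor lungs and 11.48, 11.33 and 11.57 in control lungs. The change was -0.60 ± 0.13 without overlap (adjusted p = 0.162). In this list 2 genes, Cd74 among them, were higher and 1 lower without overlap. Groups did not overlap for 18.2% of all probe sets tested in lung. Of 22 other type I genes, 0 passed, and without overlap 0 were higher and 3, Cyp2b10 among them, lower. By mean, 7 were higher and 15 lower, with a median change of -0.06. The largest were Cldn18, a tight junction claudin (change -0.51 ± 0.22, adjusted p = 0.419), the cytochrome gene Cyp2b10 (-0.50 ± 0.11, adjusted p = 0.172) and Igfbp2, which binds insulin-like growth factors (0.36, adjusted p = 0.457).

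Among 19 regulators of the alveolar epithelium 1 was called lower, Elf3, an epithelial Ets-family factor, and 0 higher. Of all probe sets tested in lung, 0.406% were called in either direction. Elf3 read 5.20, 5.17 and 5.09 in tumor lungs and 6.47, 6.93 and 6.53 in control lungs, with no overlap. In this list 1 gene was higher and 3 lower without overlap, Elf3 and Foxa1 among the lower. Groups did not overlap for 18.2% of all probe sets tested in lung. The change of Elf3 was -1.49 ± 0.14, 2.80-fold lower in tumor lungs (adjusted p = 0.0251). The call rested on all 6 arrays: leaving out any 1 raised the adjusted p to between 0.0656 and 0.12, with changes of -1.57 to -1.34, and without both Alb-rich arrays it was 0.345, with a change of -1.57. Beside it, 11 airway genes averaged -0.00, -0.24 and -0.42 in tumor lungs and 0.04, 0.24 and 0.39 in control lungs, whose part in the Elf3 value was not tested. Elf5, a related factor, read 7.93 ± 0.48 in tumor lungs and 6.86 ± 0.64 in control lungs (adjusted p = 0.345), and the forkhead factor Foxa1 10.54 ± 0.04 in tumor lungs and 10.91 ± 0.04 in control lungs (adjusted p = 0.155). The regulators split into 9 higher and 10 lower means, with a median change of -0.08.

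Surfactant lipid and turnover genes gave no call. Of 22 phospholipid synthesis genes, 10 had higher and 12 lower means (median change -0.09), among them Lpin1, a phosphatidate phosphatase (-0.79 ± 0.17, adjusted p = 0.172), the choline kinase gene Chka (-0.45, adjusted p = 0.322) and the fatty acid elongase gene Elovl1 (0.42, adjusted p = 0.59). Of 16 genes of surfactant processing, secretion and clearance, 8 had higher and 8 lower means (median -0.01). In this list Csf2rb and Csf2ra, subunits of the GM-CSF receptor through which macrophages are kept able to clear surfactant, changed by 0.82 ± 0.26 (adjusted p = 0.296) and 0.39 (adjusted p = 0.549), and Pparg by -0.52 (adjusted p = 0.591). Csf2rb is also a myeloid gene, and 5 of the 11 neutrophil genes tested passed as higher in the same lungs. Over all probe sets tested in lung, 0.406% were called in either direction. Of the 5 neutrophil genes that passed, Ltf, Camp, Mmp8 and Cd177 were under the filter on every control lung array, so they were tested only through the tumor lungs. So was Cxcr2, which did not pass. The fifth, Ngp, read 12.10, 12.24 and 11.45 in tumor lungs and 4.88, 7.35 and 5.24 in control lungs (adjusted p = 0.0373). S100a8, above, did not pass (adjusted p = 0.1, limma). The mean level of the neutrophil list was 8.34 to 9.10 in tumor lungs and 4.86 to 5.55 in control lungs, and its part in the Csf2rb value was not tested.

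Junction, airway and macrophage lists held 0 genes past the threshold. Of all probe sets tested in lung, 0.406% were called in either direction and 54.6% had lower means. Of 17 junction and epithelial identity genes, 5 had higher and 12 lower means (median -0.15); Cldn18, above, had the largest change, before Cldn3, another claudin (-0.46, adjusted p = 0.516) and St14, the matriptase gene (-0.45, adjusted p = 0.393). Of 10 airway genes, 2 had higher and 8 lower means (median -0.24). Foxj1, the ciliated cell factor, read 3.11, 3.39 and 3.07 in tumor lungs, all under the filter value, and 4.17, 6.42 and 5.89 in control lungs, so it was tested only through the control lungs (adjusted p = 0.206). Rsph1, of the ciliary radial spoke, changed by -0.82 (adjusted p = 0.451) and the claudin gene Cldn10 by -0.68 ± 0.23 (adjusted p = 0.314). Of 9 alveolar macrophage genes, 2 had higher means, Siglecf (0.40) and Chil3 (0.04), and 7 had lower means (median -0.41). The largest changes were Krt79 at -1.35, Fabp4 at -0.997 and Fabp1 at -0.53 (adjusted p = 0.661, 0.578 and 0.802). With 1 array left out Krt79 ran from -2.37 to -0.21, Fabp4 from -1.70 to -0.47 and Fabp1 from -1.25 to -0.046. Fabp1 was highest on both Alb-rich arrays, and their part in its change was not tested. Endothelial (14 genes) and fibroblast (12 genes) lists had 0 calls and medians of 0.02 and 0.12.

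**Figure D5:**
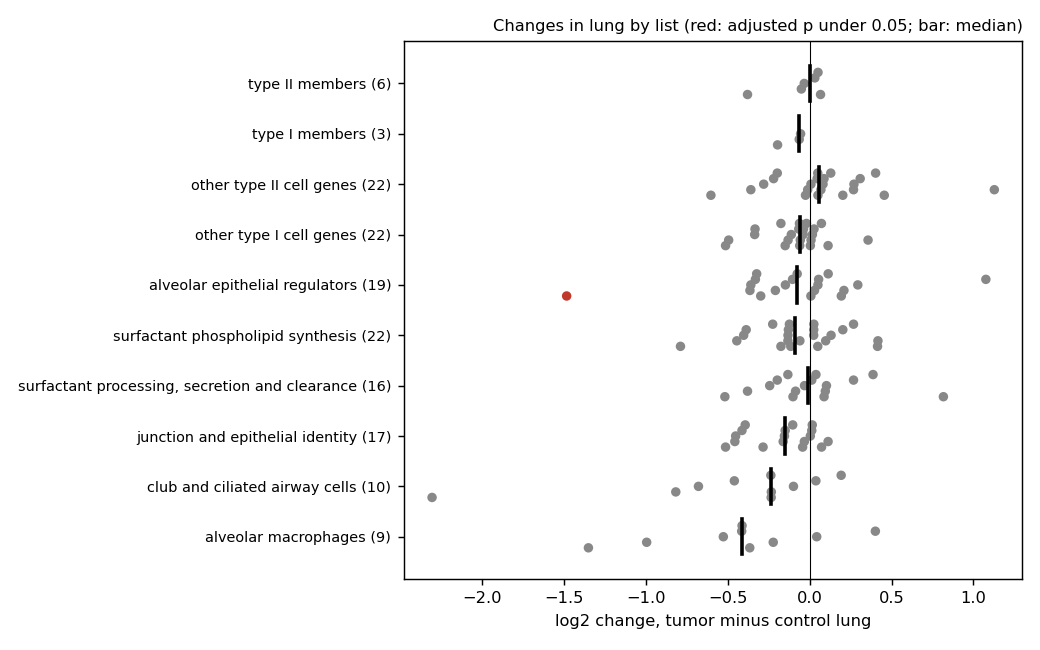
Change of every tested gene of each list, tumor minus control lung, in log2 units, with the number of genes in brackets and a bar at the median. Elf3 at -1.49 is the only gene past the threshold in the lists drawn, which do not include the neutrophil list.

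In liver, 4 probe sets of the genes passed the filter, those of Abca3 and Hopx. Between tumor and control livers 0 were called (adjusted p from 0.358 to 0.711), against 1.53% of all probe sets tested. Hopx read 9.13, 9.91 and 9.65 in tumor livers and 9.84, 9.89 and 9.95 in control livers, overlapping, with a change of -0.33 ± 0.20 (adjusted p = 0.358). The brightest Abca3 probe set read 12.24, 12.19 and 11.94 in tumor livers and 12.33, 12.28 and 12.02 in control livers, a change of -0.08 ± 0.13 (adjusted p = 0.711). The lung change minus the liver change was called for 0 of the 4 (adjusted p from 0.558 to 0.93), against 1.33% of all probe sets tested, so a difference between the organs was not shown for them.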

How the data were processed

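Lung and liver RNA of 12 mouse samples was hybridised to Affymetrix expression arrays. The values are log2 expression per probe set that the authors deposited, made with GCRMA per the submitters' processing notes, which also name limma; their versions and settings were not given in those notes. Every array had the lowest value 2.0444, and 26.7% to 28.5% of values lay within 0.05 of it.

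Probe sets were named from the platform annotation: 20380 had 1 symbol, 691 several and 1555 none. All probe sets above 4 on at least 3 fitted arrays were tested with limma 3.58.1 (lmFit and eBayes) in R 4.3.3, two-sided, with Benjamini-Hochberg adjustment over all of them and a threshold of 0.05, and every adjusted p is from limma. A gene stands for its probe set with the highest mean over 12 arrays. The script was tested on simulated data.

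The members and the 15 lists (254 entries) were chosen with earlier results of these data known. Named genes outside the members were those past the threshold in a list and, where fewer than 3 passed, the largest changes up to 3; the neutrophil list is given by its average and the genes past the threshold, the endothelial, fibroblast, hepatocyte and cardiac lists by counts and averages, and Alb, Myh6, Scgb1a1 and S100a8 mark other cells. Genes most like the averages were the top 5 by Pearson r. Of 14 hepatocyte genes 9 were tested in lung (1 mean higher, 8 lower) and of 13 cardiac genes 11 (4 higher, 7 lower). Both lists had 0 calls, beside 0.406% of all probe sets tested in lung. Alternatives changed the filter, probe set choice, normalization, eBayes options, array weights, samples fitted, the replicate block and the arrays left out. Whether the numbers pair the samples was checked on the deviations from the group means. Alternatives for the liver comparison, for control lung against control liver and for the Abca3 probe set were added after seeing the data.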

Additional observations from a re-analysis of the deposited data

How the results depend on the processing

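In lung 0 of the genes were called under any of 17 alternatives. Of 153 values 136 kept their sign and 17 turned it, all between -0.67 and 0.17 with adjusted p of 0.289 or more. The sign turned with the mean of probe sets for Abca3 (0.078), with quantile normalization for Sftpa1 (-0.034), with array weights for Sftpb (0.028), Abca3 (0.029) and Ager (0.012), and without both Alb-rich arrays for Sftpa1 (-0.077), Sftpc (-0.0042) and Sftpd (-0.13). With 1 array left out the change ran from -0.049 to 0.078 for Sftpa1, -0.17 to 0.050 for Sftpb, -0.046 to 0.17 for Sftpd, -0.19 to 0.086 for Abca3, -0.14 to 0.0063 for Ager and -0.15 to 0.059 for Aqp5. Napsa (-0.67 to -0.06) and Hopx (-0.26 to -0.15) kept theirs. Type II minus type I ran from -0.07 to 0.15. In liver Abca3 turned to 0.026 with the mean of probe sets and to 0.030 with median centring, and ran from -0.18 to 0.0088 with 1 array left out. Abca3 and Hopx were called higher in control lung than in control liver under all 16 alternatives.

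Over all probe sets in lung, 44 were called higher and 10 lower. Called higher were 7 with no filter, 85 with trend and robust, 67 with array weights, 201 with all 12 arrays in 1 fit, 0 without both Alb-rich arrays and 5 to 19 with 1 array left out. Called lower were 2 with no filter, 16 above 6, 18 with the mean of probe sets, 23 with trend and robust, 16 with array weights, 127 with all 12 arrays, 0 without both Alb-rich arrays and 0 to 5 with 1 array left out. With the replicate block 2 were called higher and 0 lower. Deviations of tumor and control lungs with the same number correlated at -0.053, 0.282 and -0.185, and those with unlike numbers at -0.274 to 0.301. Lung and liver of 1 number correlated at 0.112, 0.009 and 0.053 in tumor-bearing mice and 0.167, -0.019 and 0.102 in control mice. With unlike numbers they correlated at -0.088 to 0.048 in tumor-bearing mice and -0.143 to 0.029 in control mice. With so few arrays these correlations cannot settle what a number marks. The causes were not tested. Elf3 lost its call with no filter (adjusted p = 0.0914) and with the replicate block (0.142), its change staying at -1.49 in both. Foxj1, not called in the main fit, was called lower with all 12 arrays in 1 fit (change -2.31, adjusted p = 0.0243, limma). Its tumor lung values were all under the filter value. Of 23 named genes outside the members, 12 moved by over 1.5 times with 1 array left out and 0 changed sign. Besides those in the report they were Retnla (0.69 to 1.71), Elovl1 (0.10 to 0.60), Pparg (-0.74 to -0.18), Chka (-0.56 to -0.29), Cldn10 (-0.81 to -0.42), Cldn3 (-0.70 to -0.26), Csf2ra (0.25 to 0.58), Rsph1 (-1.097 to -0.50) and St14 (-0.57 to -0.29).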

Other observations

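Transcripts of lung epithelium appeared on single liver arrays. Sftpc read 2.40, 2.24 and 2.55 in tumor livers and 2.44, 6.54 and 2.63 in control livers, so control replicate 2 was high. On that array Sftpa1 read 3.79, under the filter value of 4, against 2.29 to 2.56 on the other liver arrays. Sftpb (2.53), Napsa (2.87), Ager (3.20), Aqp5 (2.78) and the other Sftpc probe set (3.63) were also under the filter value on that array. Sftpd was highest in control liver replicate 3, at 4.21, against 2.20 to 2.92 on the others. Scgb1a1, the club cell secretoglobin, read 2.22, 2.22 and 5.12 in tumor livers and 2.85, 3.31 and 2.22 in control livers, and was high in tumor replicate 3.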
